A study of Mus musculus with 9 samples.

Results

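The late step of reprogramming, from day 9 to day 12, was followed in mouse embryonic fibroblasts (MEFs) that were being converted into induced pluripotent stem cells. It was taken as the 3 libraries of day 12 against the 3 of day 9, matched by hairpin, 6 of the 9 libraries of the series. The remaining 3 libraries, of day 6, entered the model as a further day. The MEFs were of strain C57Bl/6cJ, received plasmids for Oct4, Sox2, Klf4 and c-Myc, and grew in embryonic stem cell medium with leukemia inhibitory factor. Each culture also received a pretroSuper hairpin construct, against luciferase (the control), against Hnrnpk (an RNA-binding protein) or against lincRNA-p21 (gene Trp53cor1, a long noncoding RNA next to Cdkn1a). All 3 arms therefore carry the 4 factors and a hairpin, and no untransfected culture was used here. Total RNA was taken from the whole culture, so each library mixes converting and non-converting cells, and fewer cells of a type and less RNA per cell cannot be told apart. Each arm has 1 library per day, labelled as merged replicates, so the arms are what repeats the step from day 9 to day 12.

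Reprogramming by these factors proceeds through stages. Fibroblast genes are switched off and epithelial junction genes switched on early, in what is called the mesenchymal-to-epithelial transition, and the endogenous pluripotency network is switched on late and in a small share of the cells. Cells that do not complete the route can take up other fates, and cultures with these factors are known to express genes of skin and other epithelia.

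Values are the authors' normalized signal. A difference is given as day 12 minus day 9 on the log2(signal + 10) scale, with its standard error (SE), and understates the change of genes with low signal. A gene was called where limma, fitted to 12541 genes in 9 libraries with terms for arm and day, gave a Benjamini-Hochberg adjusted p under 0.05. Because that fit holds day 6 too, the SE also carries how far the arms differed in the step from day 6 to day 9. Of the genes tested, 82 were called (0.654%), with 66 higher on day 12 (0.526%) and 16 lower (0.128%). The step before it, day 9 against day 6, gave 5008 calls (39.9%) in the same fit, and both steps use the same day 9 libraries. At an unadjusted p under 0.05, 881 genes were higher on day 12 and 888 lower, 1769 of the 12541 tested. Counts at that level in the lists below are to be read beside this share. The call count depends on which libraries give the spread. It was 833 with days 9 and 12 alone, holding all 82, and 0 when the arms were not matched (limma, 854 at an unadjusted p under 0.05). Leaving out a single library gave 421 calls without luciferase day 6, 225 without Hnrnpk day 6, 30 without Hnrnpk day 12, 11 without lincRNA-p21 day 6, 3 without luciferase day 12, and 1 without luciferase day 9, Hnrnpk day 9, lincRNA-p21 day 9 or lincRNA-p21 day 12. Leaving out an arm gave 2 calls without luciferase, 11 without Hnrnpk and 0 without lincRNA-p21 (600 at an unadjusted p under 0.05).

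The hairpins' targets were lower in their own arms than with luciferase across the step, and Trp53cor1 was also low in the Hnrnpk arm. Hnrnpk signal was 26944 on day 9 and 23376 on day 12 with the luciferase hairpin, 17016 and 12793 with its own hairpin, and 29972 and 27873 with the lincRNA-p21 hairpin. Trp53cor1 signal with its own hairpin was 122 on day 9 and 97 on day 12, where luciferase gave 237 and 250 and Hnrnpk gave 137 and 119.5. Neither target was called between the days. Fibroblast genes were still present, with Col1a1 signal between 21438.5 and 29075 in the 6 libraries and Thy1 between 1172 and 1829. Of 24 leukocyte genes listed, 5 could be tested and none was called (1 at an unadjusted p under 0.05, limma), and of 18 endothelial genes 7 could be tested and none was called (1 at an unadjusted p under 0.05).

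Every one of the 82 called genes differed in the same direction in all 3 arms. Among the 66 that rose, 64 differed by 0.5 or more in each arm, and the same held for 14 of the 16 that fell. None of the called genes was carried by a single arm, taken as a difference of 1 or more in that arm with both others under 0.5. The largest rise was in the luciferase arm for 33 genes, in the Hnrnpk arm for 18 and in the lincRNA-p21 arm for 15. Among the genes that fell, the largest fall was in the Hnrnpk arm for 9 and in the lincRNA-p21 arm for 7, and in the luciferase arm for 0. The design of the test favours such shared changes, since a gene that moves in 1 arm alone has a large spread.

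Genes of epithelia and of their barrier were among those that rose. Of 39 epithelial junction and keratin genes tested, 10 rose and 0 fell, against 0.526% of all genes that rose. The difference was above 0 in all 3 arms for 37 of the 39, against 20.3% of all genes, and its median over the list was 0.68, against -0.03 over all genes. The list's median was close in the 3 arms, at 0.71 with luciferase, 0.62 with Hnrnpk and 0.72 with lincRNA-p21. The exceptions were Cxadr, a virus receptor of tight junctions, which was lower in all arms (-0.28), and Grhl3, which was lower in the Hnrnpk arm only.

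Krt7, a keratin of simple and glandular epithelia (chromosome 15, 101411043 to 101430313, GRCm38), had the lowest adjusted p of the genes tested. Its signal went from 1324.5 on day 9 to 4038 on day 12 in the luciferase arm, from 1724.5 to 5842 in the Hnrnpk arm and from 845 to 2466 in the lincRNA-p21 arm. All day 12 libraries lay above all day 9 libraries, and the ratio was 3.05, 3.39 and 2.92. Overlap of the days, here and below, was read only for named genes, most of them picked for large differences. The share of all tested genes without overlap was not counted, so a lack of overlap adds no support. The difference was 1.63 (SE 0.10, n = 3 arms, limma adjusted p = 0.00197). Krt7 kept its call in 20 of the 22 alternative settings tried, where the other named genes that were called kept theirs in fewer.

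Tight junction genes rose with it. Cldn4, a claudin that seals the space between epithelial cells, went from 610 to 1811 in the luciferase arm, from 1494 to 3037 in the Hnrnpk arm and from 620.5 to 1307 with the lincRNA-p21 hairpin (difference 1.21, SE 0.16, limma adjusted p = 0.0215). The days overlapped for Cldn4, because the Hnrnpk arm was already higher on day 9 than the lincRNA-p21 arm on day 12, and within each arm day 12 was higher. Cldn7 (0.86), Ocln, which encodes occludin (0.95), and Cgn, which encodes the junction protein cingulin (0.87), also rose. Among the desmosome genes, which hold epithelial cells together, Dsg2 (1.17), Dsc2 (0.97) and Pkp3 (0.98) rose. The other called members of the list were Epcam (0.69) and Rab25 (1.01), a small GTPase of epithelial membrane traffic. Cdh1, which encodes E-cadherin, had signal of 1135 to 2195, 3214.5 to 4971 and 1360.5 to 2396 in the luciferase, Hnrnpk and lincRNA-p21 arms. Its difference of 0.79 missed the threshold (limma adjusted p = 0.0739).

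Krt18, the keratin that pairs with Krt8 in simple epithelia, had the largest difference of the list but an uneven one. Signal went from 221 to 422 in the luciferase arm, from 1048.5 to 4980 in the Hnrnpk arm and from 184.5 to 928.5 in the lincRNA-p21 arm. The step was 2.24 and 2.27 with the knockdown hairpins and 0.90 with luciferase, and the gene was not called (1.80, SE 0.43, limma adjusted p = 0.117). Cldn6, a claudin of early embryonic epithelium, was likewise uneven at 0.71, 1.73 and 2.19 in the luciferase, Hnrnpk and lincRNA-p21 arms (1.54, limma adjusted p = 0.232).

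**Figure D1:**
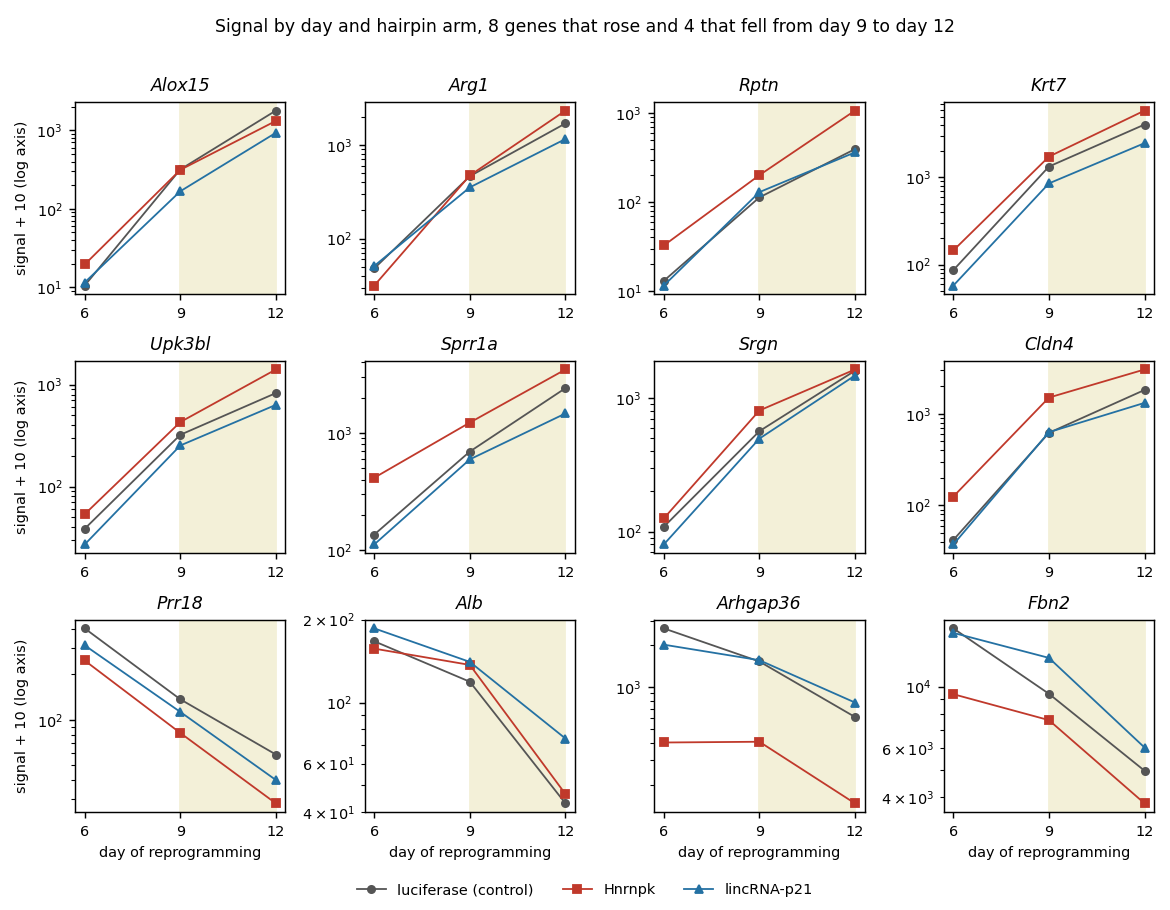
Signal plus 10 on a log axis against day for 8 genes that rose and 4 that fell from day 9 to day 12, with 1 line per hairpin arm and 1 library per point; the shaded band is the late step. For Krt7 the 3 lines run nearly parallel from day 9 to day 12, and for Prr18, Alb, Arhgap36 and Fbn2 all 3 lines go down.

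Genes of the skin barrier had some of the largest rises. The cornified envelope is the protein shell that skin cells build as they harden, and many of its parts are encoded side by side in the epidermal differentiation complex (chromosome 3, 90511034 to 93564643, GRCm38, from S100a1 to S100a10). This cluster and the others below were chosen after the values had been seen. The annotation places 75 protein-coding genes there. In the interval 25 genes could be tested, among them Rplp0-ps1, a pseudogene by its name, and 5 of the 25 rose: Rptn, Sprr2d, Sprr1a, Sprr2h and S100a14. The difference was above 0 in all 3 arms for 17 of the 25 and below 0 in all 3 arms for 0, with a median of 0.50. Over all genes tested, 0.526% rose and 20.3% were above 0 in all 3 arms.

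The 250 bases before the start of 4 of these genes, and of Krt7 for contrast, are printed here because those 4 rose and lie in 1 cluster. S100a14 also rose and lies in the cluster, but no promoter was matched to it. They are from the RefSeq annotation of GRCm38.p6, 5′ to 3′ on the gene's own strand. Capitals mark matches to TATAAA (the TATA box), TGANTCA and AACNGGTT (the core of the grainyhead site), each searched on both strands. TGANTCA is a looser form of the AP-1 core, which is TGACTCA or TGAGTCA, and the shares below count every form of it. Positions count the first base of a match back from the start. The regions are chr3:92485882-92486131 (minus strand) for Sprr1a, chr3:92338890-92339139 (plus) for Sprr2d, chr3:92385435-92385684 (plus) for Sprr2h, chr3:93393449-93393698 (plus) for Rptn and chr15:101412153-101412402 (plus) for Krt7.
Sprr1a: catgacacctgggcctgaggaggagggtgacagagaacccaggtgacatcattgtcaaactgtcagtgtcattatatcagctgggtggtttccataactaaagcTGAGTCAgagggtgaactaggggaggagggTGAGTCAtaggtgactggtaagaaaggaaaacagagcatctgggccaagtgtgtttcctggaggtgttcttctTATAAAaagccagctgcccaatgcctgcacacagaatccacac
Sprr2d: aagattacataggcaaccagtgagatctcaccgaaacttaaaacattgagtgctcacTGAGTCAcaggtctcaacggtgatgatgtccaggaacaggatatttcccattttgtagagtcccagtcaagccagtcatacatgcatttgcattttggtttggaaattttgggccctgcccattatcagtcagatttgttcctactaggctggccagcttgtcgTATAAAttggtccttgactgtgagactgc
Sprr2h: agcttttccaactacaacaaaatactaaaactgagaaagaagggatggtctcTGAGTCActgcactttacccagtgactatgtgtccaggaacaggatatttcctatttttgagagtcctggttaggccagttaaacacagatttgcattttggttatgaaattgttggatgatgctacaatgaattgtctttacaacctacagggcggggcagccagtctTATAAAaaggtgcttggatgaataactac
Rptn: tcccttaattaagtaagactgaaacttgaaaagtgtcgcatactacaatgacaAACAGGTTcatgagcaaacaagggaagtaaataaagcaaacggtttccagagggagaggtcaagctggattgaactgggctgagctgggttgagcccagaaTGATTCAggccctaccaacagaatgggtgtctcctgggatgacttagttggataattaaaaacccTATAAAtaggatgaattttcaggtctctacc
Krt7: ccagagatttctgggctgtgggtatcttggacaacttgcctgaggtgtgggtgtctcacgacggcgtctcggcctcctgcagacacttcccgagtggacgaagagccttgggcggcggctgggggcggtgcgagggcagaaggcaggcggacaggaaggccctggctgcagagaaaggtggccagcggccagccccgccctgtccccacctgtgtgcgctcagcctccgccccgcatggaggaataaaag
TATAAA stood at -43 in Sprr1a, at -29 in both Sprr2d and Sprr2h, and at -31 in Rptn, and the Krt7 window held none of the 3 motifs. The Krt7 window lies inside the gene's GENCODE interval (101411043 to 101430313). Bases before the start of that interval were not searched. TGANTCA stood at -146 and -116 in Sprr1a, at -193 in Sprr2d, at -198 in Sprr2h and at -96 in Rptn. The Rptn match reads TGATTCA and so is not the AP-1 core itself. AACNGGTT was found at -197 in Rptn. The Sprr2d and Sprr2h windows share much of their sequence, so they are not separate examples. Over the cluster, 21 of the 25 tested genes had a promoter in the table, of which 52.4% held TATAAA and 42.9% held TGANTCA, against 13% and 6.87% of all 27025 promoters of the same length in the table. Among the 9287 promoters that could be matched to the 12518 names of tested genes, 6.34% held TATAAA and 4.25% held TGANTCA. The median number of CG dinucleotides was 1 in the cluster's promoters, 6 in all promoters and 16 in those of the tested genes, and the Krt7 window also had 16.

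Rptn encodes repetin, a cornified envelope precursor. Its signal went from 103 to 384.5 in the luciferase arm, from 191 to 1060.5 in the Hnrnpk arm and from 119.5 to 353 in the lincRNA-p21 arm. The days did not overlap, and the Hnrnpk arm had the largest step (2.41, against 1.80 and 1.49). The difference was 1.90 (SE 0.20, limma adjusted p = 0.0113).

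The small proline-rich proteins are cross-linked into the same envelope. Sprr1a went from 683 to 2392.5 in the luciferase arm, from 1213.5 to 3456.5 in the Hnrnpk arm and from 584.5 to 1453 with the lincRNA-p21 hairpin (1.53, SE 0.20, limma adjusted p = 0.0215). Sprr2d went from 46 to 237.5, from 83 to 336 and from 54.5 to 140.5 in the luciferase, Hnrnpk and lincRNA-p21 arms (1.75, SE 0.27, limma adjusted p = 0.0336). Sprr2h went from 26.5 to 110, from 50 to 186.5 and from 27.5 to 74 in the same order (1.53, SE 0.23, limma adjusted p = 0.0312). For these 3 genes the days did not overlap and the step was smallest in the lincRNA-p21 arm. Reads of the near-identical Sprr2 copies may have been divided among them, so the value of any single copy is uncertain. Sprr2a2 was at 32933.5 on day 12 in the Hnrnpk arm, from 4779 on day 9, and was not called (2.01, limma adjusted p = 0.0893). Sprr2a1 was lower on day 12 in the lincRNA-p21 arm, at 437 from 589.5, and higher in the other arms.

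The cluster also holds S100 genes of calcium-binding proteins. S100a14, an epithelial member, rose by 1.20, while S100a4, S100a6, S100a10, S100a11 and S100a16, which fibroblasts also express, had differences between 0.03 and 0.25. Filaments and scaffolds of the hair follicle and the outer skin, Tchh (1.57, limma adjusted p = 0.0820) and Hrnr (0.75), were higher in all 3 arms and not called. Ivl, the gene of involucrin, had signal of 7 to 17.5, 66 to 89 and 16 to 24 in the luciferase, Hnrnpk and lincRNA-p21 arms, and Lor, the gene of loricrin, differed by 0.22.

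**Figure D2:**
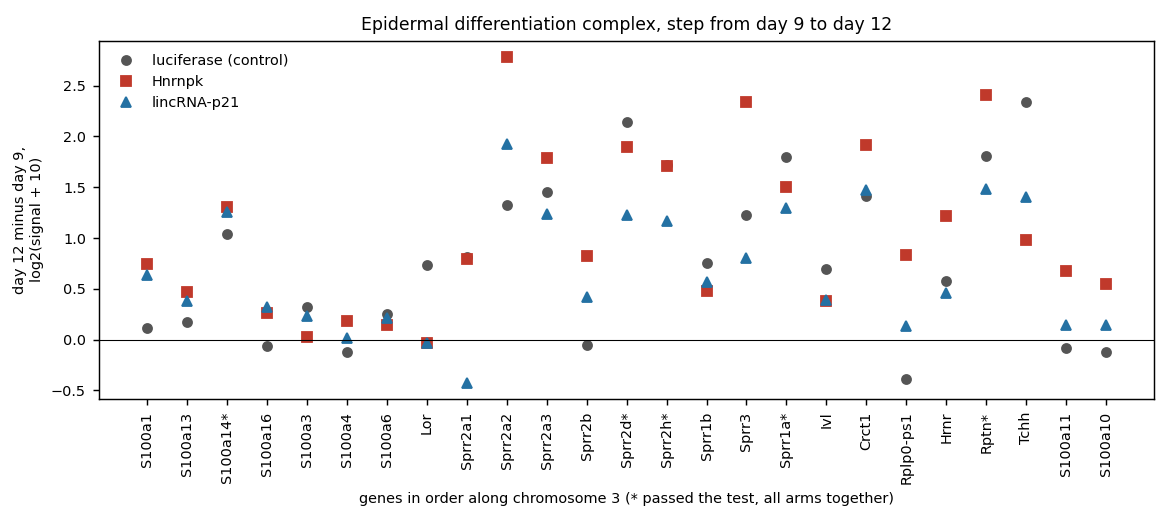
Day 12 minus day 9 on the log2(signal + 10) scale for the 25 tested genes of the epidermal differentiation complex, in their order along chromosome 3, with 1 marker per hairpin arm and asterisks on the 5 called genes. The high values lie among the Sprr genes, Crct1, Rptn and Tchh in the middle of the cluster, and most S100 genes at both ends lie near 0.

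Among the 28 keratinocyte genes tested, 4 rose (Sprr1a, Sprr2h, Lypd3 and Dsg3) and 0 fell, with 20 above 0 in all 3 arms (20.3% of all genes tested, of which 0.526% rose) and a median of 0.48. Lypd3, a surface protein of the upper layers of skin, went from 297 to 765.5 in the luciferase arm, from 368 to 763 in the Hnrnpk arm and from 289 to 604 with the lincRNA-p21 hairpin (1.14, SE 0.18, limma adjusted p = 0.0336). Dsg3, a desmosomal cadherin of stratified epithelium, rose by 1.03. The keratins of the basal layer were not called. Krt5 differed by -0.02, with signal of 804 on day 9 and 1368.5 on day 12 in the Hnrnpk arm but 74.5 and 55 in the luciferase arm, and 120 and 85.5 with the lincRNA-p21 hairpin. Krt14 differed by 0.29 and Krt1, a keratin of the layers above, by -0.65, and neither was called. Of the 66 genes that rose, 17 belonged to the epithelial or keratinocyte lists or to the cluster on chromosome 3, and 49 to none of them.

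The serpin B cluster on chromosome 1 (106861173 to 107610484, GRCm38) holds protease inhibitors of squamous epithelia. All 8 of its tested members were above 0 in all 3 arms, against 20.3% of all genes, with a median of 0.79. At an unadjusted p under 0.05 (limma) 6 were higher, against 881 of all 12541 genes, and 0 of the 8 were called. Serpinb11 was the highest of them at 1.18 (limma adjusted p = 0.0700). The Serpinb3 copies are near identical and their single values are uncertain.

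Outside those lists, large rises included those of Alox15, Prss22 and Arg1. Alox15, a lipoxygenase that adds oxygen to polyunsaturated fatty acids (chromosome 11, 70344152 to 70352031), was at 0.5 to 9.5 on day 6. It went from 306.5 on day 9 to 1771.5 on day 12 in the luciferase arm, from 303 to 1306 in the Hnrnpk arm and from 157 to 919 in the lincRNA-p21 arm. The days did not overlap, and the difference of 2.35 was the largest among called genes (SE 0.24, limma adjusted p = 0.0113). Alox12b, a lipoxygenase of the skin's lipid barrier, rose by 1.34, with its largest step in the luciferase arm (1.93). Aloxe3, its neighbour and partner enzyme, had nearly equal steps of 0.57, 0.61 and 0.62 and was not called (limma adjusted p = 0.243).

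Arg1, the arginase of the urea cycle (chromosome 10, 24915221 to 24927484), went from 453 to 1684 in the luciferase arm, from 461.5 to 2312 in the Hnrnpk arm and from 342 to 1145 in the lincRNA-p21 arm. The days did not overlap, and the difference was 1.96 (SE 0.26, limma adjusted p = 0.0218). Arg1 is also known as a macrophage gene, and the 5 leukocyte genes that could be tested had differences between -0.06 and 0.88. Prss22, a serine protease of airway epithelium, was at 0 in all 3 arms on day 6. It was at 4, 13 and 12 on day 9 and at 68, 135 and 49 on day 12 in the luciferase, Hnrnpk and lincRNA-p21 arms (2.19, SE 0.34, limma adjusted p = 0.0336).

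Scel, which encodes the envelope precursor sciellin, went from 106 to 426, from 155 to 602 and from 79 to 260 in the luciferase, Hnrnpk and lincRNA-p21 arms (1.80, SE 0.28, limma adjusted p = 0.0336). It had not been called in the step before, where it differed by 0.38 (limma adjusted p = 0.309). Upk3bl, a relative of the plaque proteins of the bladder lining, went from 312 to 817.5, from 419.5 to 1400.5 and from 243 to 624 in the same order (1.47, SE 0.12, limma adjusted p = 0.00989). Spns2, a transporter of sphingosine-1-phosphate, went from 52 to 235.5, from 66 to 210.5 and from 59 to 144 (1.56, SE 0.22, limma adjusted p = 0.0268). Slc15a1, the peptide transporter of the intestinal lining, went from 41.5 to 127.5, from 52.5 to 132.5 and from 28 to 99 (1.38, SE 0.20, limma adjusted p = 0.0283). For all 4 genes, which were picked for their large differences, every day 12 library lay above every day 9 library.

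Further called genes are named after their values were seen. Klk7 (1.34), a protease that loosens dead skin cells, Psca (1.21), a surface protein of epithelial cells, and Cldn1 (1.20), the claudin of the skin barrier, rose. So did Mal2 (1.28), of epithelial membrane traffic, and Ltf (1.30), the secreted iron-binding lactoferrin. Barx2, a homeobox gene, rose by 1.18, and Porcn, the enzyme that adds the fatty acid Wnt proteins need for secretion, by 0.99. Srgn, a proteoglycan core protein of secretory granules, rose by 1.37, reaching 1602, 1637 and 1474 from 557, 800.5 and 488.5 in the luciferase, Hnrnpk and lincRNA-p21 arms.

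Values of the step before, which uses the same day 9 libraries, are set beside these. Krt7 stood at 76.5, 135.5 and 47.5 on day 6 in the luciferase, Hnrnpk and lincRNA-p21 arms, and its earlier difference, day 9 minus day 6, was 3.81. S100a14 had an earlier difference of 4.86 and a later one of 1.20, Cldn4 of 3.85 and 1.21, and Klk7 of 4.33 and 1.34. The step from day 9 to day 12 was the larger for Scel (0.38 and then 1.80), Psca (0.36 and then 1.21), Prss22 (0.94 and then 2.19) and Ltf (0.70 and then 1.30). Whether the earlier and later steps differed was not tested.

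Of the 16 genes that fell, 8 fell by 1 or more. Lipf, a gastric lipase, had the largest fall: it went from 27 to 0 in the luciferase arm, from 47.5 to 10 in the Hnrnpk arm and from 85 to 14.5 with the lincRNA-p21 hairpin (-1.79, SE 0.22, limma adjusted p = 0.0210). Alb, the gene of serum albumin, went from 109 to 33, from 127 to 36.5 and from 130.5 to 64 (-1.32, SE 0.18, limma adjusted p = 0.0215). Sult1b1, a sulfotransferase of liver and gut, went from 67 to 30, from 80 to 35 and from 108 to 39.5 in the same order of arms (-1.07). In these 3 genes the days did not overlap.

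Dll1, a Notch ligand, went from 42.5 to 17 in the luciferase arm, from 53.5 to 18.5 in the Hnrnpk arm and from 68.5 to 26 with the lincRNA-p21 hairpin (-1.08, SE 0.17, limma adjusted p = 0.0365). Cxcl14, a chemokine, went from 671 to 403.5, from 969 to 632 and from 1346.5 to 626.5 (-0.81, SE 0.11, limma adjusted p = 0.0256). Sfrp2, a secreted antagonist of Wnt, was the 1 called member of the 31 Wnt pathway genes tested and fell by 0.59 (0.128% of all genes fell). In that list 11 were below 0 in all 3 arms (35.5%, against 28.4% of all genes) and 3 above. Frzb, a secreted Wnt antagonist outside that list and named here after its values were seen, rose by 0.80. It was higher in all 3 arms (SE 0.12, limma adjusted p = 0.0336). Rprm, which encodes the cell cycle arrest factor reprimo, went from 98 to 38.5, from 108.5 to 36 and from 152 to 71 (-1.17, SE 0.15, limma adjusted p = 0.0210).

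Fbn2, the fibrillin of embryonic matrix, went from 9415 to 4973.5 in the luciferase arm, from 7567.5 to 3792 in the Hnrnpk arm and from 12680 to 6029.5 in the lincRNA-p21 arm, close to a 2-fold fall in each arm (-0.995, SE 0.12, limma adjusted p = 0.0210). Msc, a transcription factor of muscle precursors and mesenchyme, went from 2666 to 1522, from 2523 to 1382 and from 3118.5 to 1874 (-0.80, SE 0.13, limma adjusted p = 0.0449). Pi16, a surface marker of fibroblast subsets, fell by 0.90 and the extracellular matrix gene Fras1 by 0.75. Arhgap36, a regulator of Hedgehog signalling, went from 1516.5 to 600.5, from 395.5 to 136.5 and from 1549.5 to 765, so that the days overlapped between arms while each arm fell (-1.27, SE 0.17, limma adjusted p = 0.0215). Prr18 (-1.42) and Lrrc10b (-1.32) also fell, and were lowest in the Hnrnpk arm on day 12, at 18 and 7. Nr2f1, a nuclear receptor of neural and mesenchymal development, fell by 0.68 and Olfml3, a secreted matrix protein, by 0.63.

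In the wider fibroblast list no gene was called. Of 40 fibroblast and mesenchymal genes tested, 0 were called (limma, 6 at an unadjusted p under 0.05, against 1769 of all 12541 genes). Below 0 in all 3 arms were 16 (40%, against 28.4% of all genes) and above 0 in all 3 were 4, with a median of -0.15. The arms were unlike: the median was -0.15 with luciferase, -0.01 with Hnrnpk and -0.36 with lincRNA-p21. The highest of the 3 steps was in the Hnrnpk arm for 27 of the 40 genes and in the lincRNA-p21 arm for 0, against 4412 and 3018 of the 12541 genes tested. Cdh11, a cadherin of mesenchymal cells, had signal of 1643 to 918, 1688 to 1604 and 2229.5 to 1275.5 in the luciferase, Hnrnpk and lincRNA-p21 arms (-0.57, limma adjusted p = 0.156). Gas1, a growth arrest gene of fibroblasts, differed by -0.83 and -1.07 in the luciferase and lincRNA-p21 arms and by 0.31 in the Hnrnpk arm. Zeb2, a repressor of E-cadherin, was below 0 in all 3 arms (-0.51, limma adjusted p = 0.158). Loxl2, which cross-links collagen, was above 0 in all 3 (0.48).

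Positional genes record where in the embryo a fibroblast came from. Of 42 Hox and positional homeobox genes tested, 0 were called and the median was -0.26. At an unadjusted p under 0.05 (limma), 15 were lower and 0 higher, against 888 lower and 881 higher of all 12541 genes. Below 0 in all 3 arms were 27 of the 42 (64.3%, against 28.4% of all genes). Hoxb9 had signal of 102 to 57 in the luciferase arm, 97 to 54 in the Hnrnpk arm and 139.5 to 62.5 with the lincRNA-p21 hairpin (-0.84, SE 0.17, limma adjusted p = 0.0733). Tbx5 (-0.72), a forelimb gene, and Pitx1 (-0.70) and Hoxd13 (-0.66), genes of hindlimb and digits, were also below 0 in all 3 arms.

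Pluripotency genes had steps that differed in size between arms, and 1 of the 50 list entries tested was called. Of 25 core and naive factors 0 were called (limma, 7 at an unadjusted p under 0.05, of which 6 were higher). Of 25 late markers 1 rose (4%, against 0.526% of all genes), Epcam, which is also an epithelial gene. At an unadjusted p under 0.05 (limma) 8 late markers were higher and 0 lower, against 881 and 888 of all 12541 genes. Above 0 in all 3 arms were 11 core factors (44%) and 14 late markers (56%), against 20.3% of all genes. Below 0 in all 3 arms were 3 and 1. The median difference was 0.31 for the core list and 0.40 for the late list. By arm, the core list's median was 0.04 with luciferase, 0.08 with Hnrnpk and 0.48 with lincRNA-p21, and the late list's 0.22, 0.52 and 0.60. The lincRNA-p21 arm had the highest step for 18 of the 25 core genes and 18 of the 25 late ones, against 3018 of all 12541 genes. In the late list 3 genes were 2-fold or more higher on day 12 in the luciferase arm, 6 in the Hnrnpk arm and 10 in the lincRNA-p21 arm, with no test within an arm.

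Dppa5a, an RNA-binding protein of pluripotent cells, went from 10 to 44 in the luciferase arm, from 437 to 2037.5 in the Hnrnpk arm and from 63.5 to 715.5 in the lincRNA-p21 arm. Its signal was highest in the Hnrnpk arm on both days, while its step was largest with the lincRNA-p21 hairpin (3.30, against 2.20 and 1.43). The difference of 2.31 had an SE of 0.86 and was not called (limma adjusted p = 0.292). Tdgf1, a co-receptor for Nodal, had signal of 157.5 to 204.5, 1662 to 3362 and 703.5 to 2465 in the same order (1.05, limma adjusted p = 0.392). The low luciferase arm and the high Hnrnpk arm set the order of levels in both genes.

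The same order held for Lin28a, the inhibitor of let-7 maturation, with signal of 21 to 57 in the luciferase arm, 574 to 1374 in the Hnrnpk arm and 159.5 to 685 with the lincRNA-p21 hairpin (1.46, limma adjusted p = 0.422). Utf1 had 17 to 52.5, 664 to 955.5 and 198.5 to 635 (1.12). Esrrb, a receptor of the naive network, had 44 to 72, 265 to 466 and 131 to 359 (0.93, limma adjusted p = 0.262). By day 12 the lincRNA-p21 arm stood above where the Hnrnpk arm had been on day 9 for Dppa5a, Lin28a, Tdgf1 and Esrrb, and below it for Utf1.

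Nanog, a central factor of the network, had signal of 238 to 211 in the luciferase arm, 549.5 to 893 in the Hnrnpk arm and 351 to 629 in the lincRNA-p21 arm. Zfp42, also called Rex1, had 40 to 38, 75 to 185.5 and 27.5 to 81. In both genes the control arm was level or lower on day 12 while both knockdown arms were higher. Otx2 (1.22, limma adjusted p = 0.276) and Lefty1 (0.91) were highest in the lincRNA-p21 arm's step, at 1.66 and 1.54.

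Of 18 DNA methylation genes tested 0 were called (limma, 5 at an unadjusted p under 0.05), and the list's median was -0.03, -0.14 and -0.04 in the luciferase, Hnrnpk and lincRNA-p21 arms. Dnmt3l, the cofactor of the de novo enzymes, had signal of 2.5 to 10, 65.5 to 282 and 13 to 114 in the same order of arms (1.69, limma adjusted p = 0.275). Dnmt3b had 191.5 to 186, 1864.5 to 2395.5 and 598 to 1428, so that its step was 1.24 with the lincRNA-p21 hairpin, 0.36 with Hnrnpk and -0.04 with luciferase. Dnmt1, the maintenance enzyme, was below 0 in all 3 arms (-0.47).

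**Figure D3:**
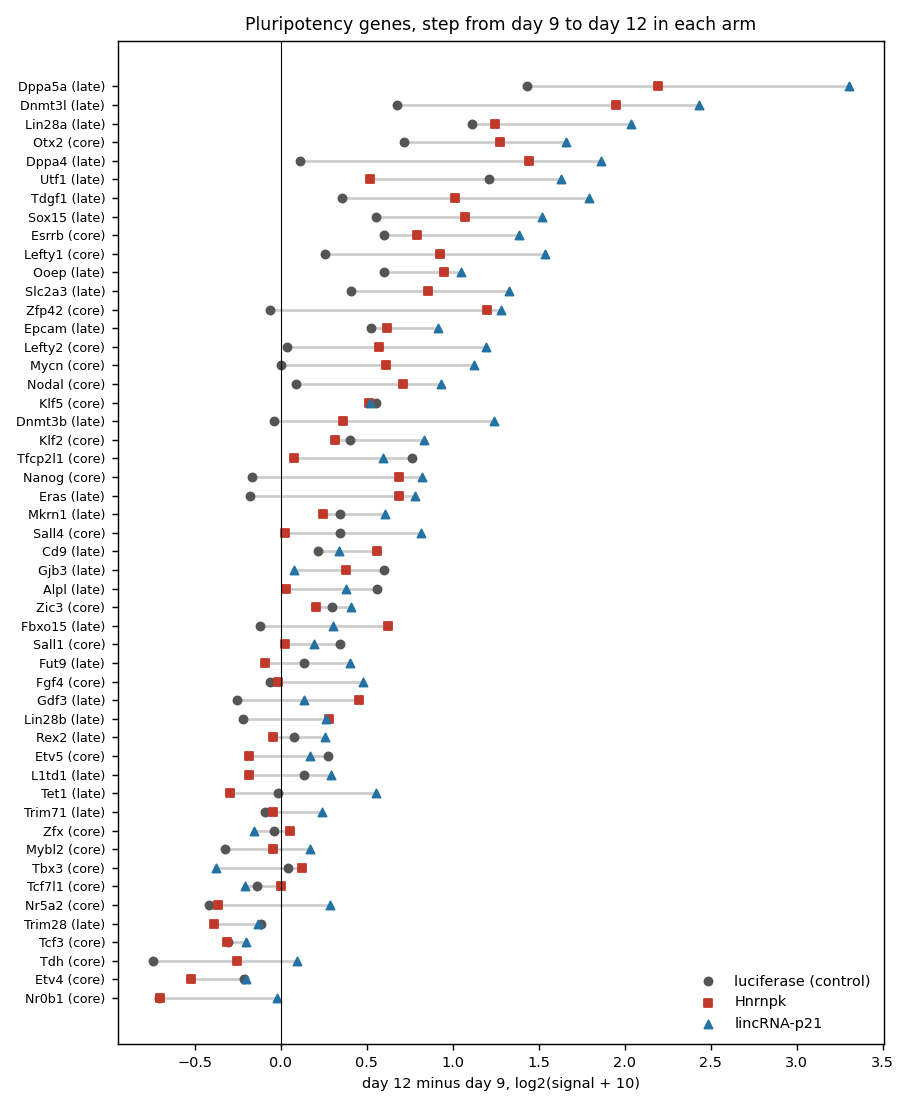
Day 12 minus day 9 on the log2(signal + 10) scale for each tested pluripotency gene, with 1 marker per hairpin arm, 1 library against 1 library, and a grey bar over the range of the 3 arms. The lincRNA-p21 marker lies farthest to the right for 36 of the 50 list entries, and the bars are widest for genes such as Dppa5a, Dnmt3l and Dppa4.

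The 4 reprogramming factors, whose signal cannot be divided here between plasmid and endogenous gene, did not share a direction. Pou5f1, the gene of Oct4, was at 44876 on day 9 in all 3 arms and at 90514, 42046.5 and 48090 on day 12 in the luciferase, Hnrnpk and lincRNA-p21 arms. Klf4 was at 39217 on both days in the luciferase and lincRNA-p21 arms. Columns share such high values across the table, which limits what a step between them can show. Differences were 0.34 for Pou5f1, 0.12 for Myc, -0.07 for Klf4 and -0.09 for Sox2, and 0 of 4 were called (limma, 0 at an unadjusted p under 0.05).

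Genes of cell division were lower in most members, by small amounts. Of 49 mitosis genes tested 0 were called (limma, 3 at an unadjusted p under 0.05, against 1769 of all 12541 genes). However, 38 were below 0 in all 3 arms (77.6%, against 28.4% of all genes) and 0 above, with a median of -0.31. The luciferase arm had the lowest step for 43 of the 49, against 4711 of all 12541 genes. The list's median there was -0.49, against -0.22 in each knockdown arm. Birc5, the gene of survivin, had signal of 1194 to 651 in the luciferase arm, 1833.5 to 1577 in the Hnrnpk arm and 1591.5 to 1315 with the lincRNA-p21 hairpin (-0.45, limma adjusted p = 0.527). Spc24 and Nuf2, of the kinetochore, differed by -0.67 and -0.45. Of 50 genes of G1/S and replication 0 were called (limma, 6 at an unadjusted p under 0.05, against 1769 of all 12541 genes). Below 0 in all 3 arms were 36 (72%, against 28.4% of all genes), with a median of -0.27. Rrm2, a subunit of ribonucleotide reductase, had signal of 4001 to 2415, 5890 to 3494.5 and 6260 to 4537 (-0.65).

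Genes of glycolysis and of the response to low oxygen were above 0 in all 3 arms for 26 of 37 tested (20.3% of all genes tested), with a median of 0.32 that was similar in the arms (0.36, 0.26 and 0.41). Pfkp, a phosphofructokinase of glycolysis, rose by 0.65, from 4590 to 7704.5 in the luciferase arm, from 4351 to 6122 in the Hnrnpk arm and from 4408 to 7284 with the lincRNA-p21 hairpin (SE 0.11, limma adjusted p = 0.0474). The other 36 were not called, so that 2.7% of the list rose against 0.526% of all genes tested, among them Ero1l (0.94, limma adjusted p = 0.0736), an oxidase of the endoplasmic reticulum, and Slc2a3 (0.86), a glucose transporter. Outside the list, P4ha1, a collagen prolyl hydroxylase and named here after its values were seen, rose by 0.76.

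The subunits of oxidative phosphorylation, in contrast, were not called and took different signs in the arms. Of 74 tested, 0 were called (limma, 0 at an unadjusted p under 0.05). The median step was -0.33 in the luciferase arm, 0.18 in the Hnrnpk arm and 0.02 in the lincRNA-p21 arm. The Hnrnpk arm had the highest step for 62 of the 74 genes, against 4412 of all 12541 genes. Ndufa4 had signal of 2556.5 to 1734 in the luciferase arm, 3823.5 to 4300.5 in the Hnrnpk arm and 3068.5 to 2586 in the lincRNA-p21 arm. Immediate early genes respond to growth signals and stress. Among the 19 tested, the luciferase arm had the highest step for 17, against 5111 of all 12541 genes. The list's medians were 0.35, 0.12 and 0.10 in the luciferase, Hnrnpk and lincRNA-p21 arms. Of the 19, 0 were called (limma, 5 at an unadjusted p under 0.05, against 1769 of all 12541 genes). Maff and Ier3 were above 0 in all 3 arms, at 0.55 and 0.48. Among 20 contractile genes the Hnrnpk arm had the highest step for 17, against 4412 of all 12541 genes. Of the 20, 0 were called (limma, 1 at an unadjusted p under 0.05, against 1769 of all 12541 genes). Outside the list, Myh2, a myosin heavy chain named here after its values were seen, rose by 0.92 (SE 0.10, limma adjusted p = 0.0156). Its steps were close, at 0.96, 0.92 and 0.87 in the luciferase, Hnrnpk and lincRNA-p21 arms.

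**Figure D4:**
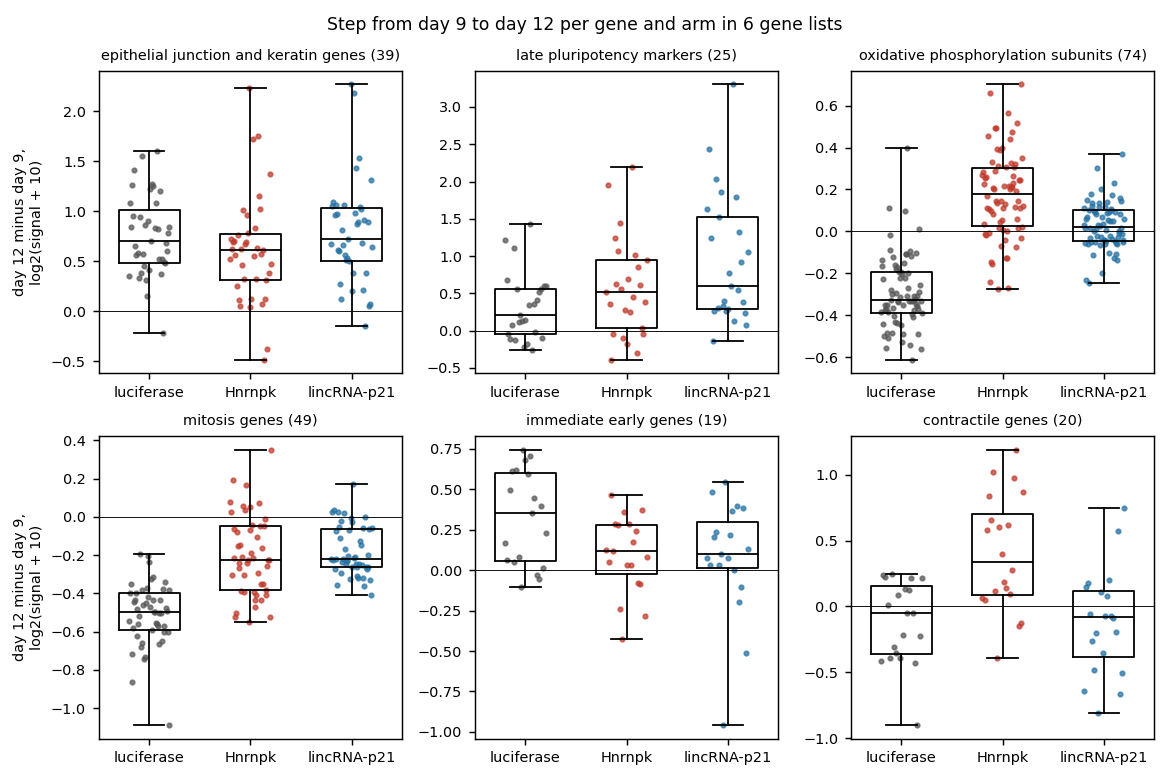
Day 12 minus day 9 on the log2(signal + 10) scale for every tested gene of 6 lists, by hairpin arm, with 1 point per gene, the box from the lower to the upper quartile, the line at the median and whiskers to the lowest and highest gene. Epithelial genes lie mostly above 0 in all 3 arms, while oxidative phosphorylation genes lie mostly below 0 with luciferase and above 0 with Hnrnpk.

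Of 38 targets of p53 tested 0 were called, with a median of 0.04. At an unadjusted p under 0.05 (limma) 4 were higher and 0 lower, against 881 and 888 of all 12541 genes. Gadd45a, a growth arrest gene, was at 330.5 to 487, 632 to 1027 and 404.5 to 622 in the luciferase, Hnrnpk and lincRNA-p21 arms (0.62, SE 0.11, limma adjusted p = 0.0569). Pmaip1, the gene of the death factor Noxa, was above 0 in all 3 arms (0.67, limma adjusted p = 0.105). The neighbour of Trp53cor1, Cdkn1a, which blocks cyclin-dependent kinases, was at 11815 on both days in the luciferase arm and between 11172.5 and 11286.5 in the other arms. Cdkn2a, the gene of Ink4a and Arf, was at 5482 to 6033.5, 3703 to 5964 and 3729.5 to 5570 (0.47, limma adjusted p = 0.195).

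**Figure D5:**
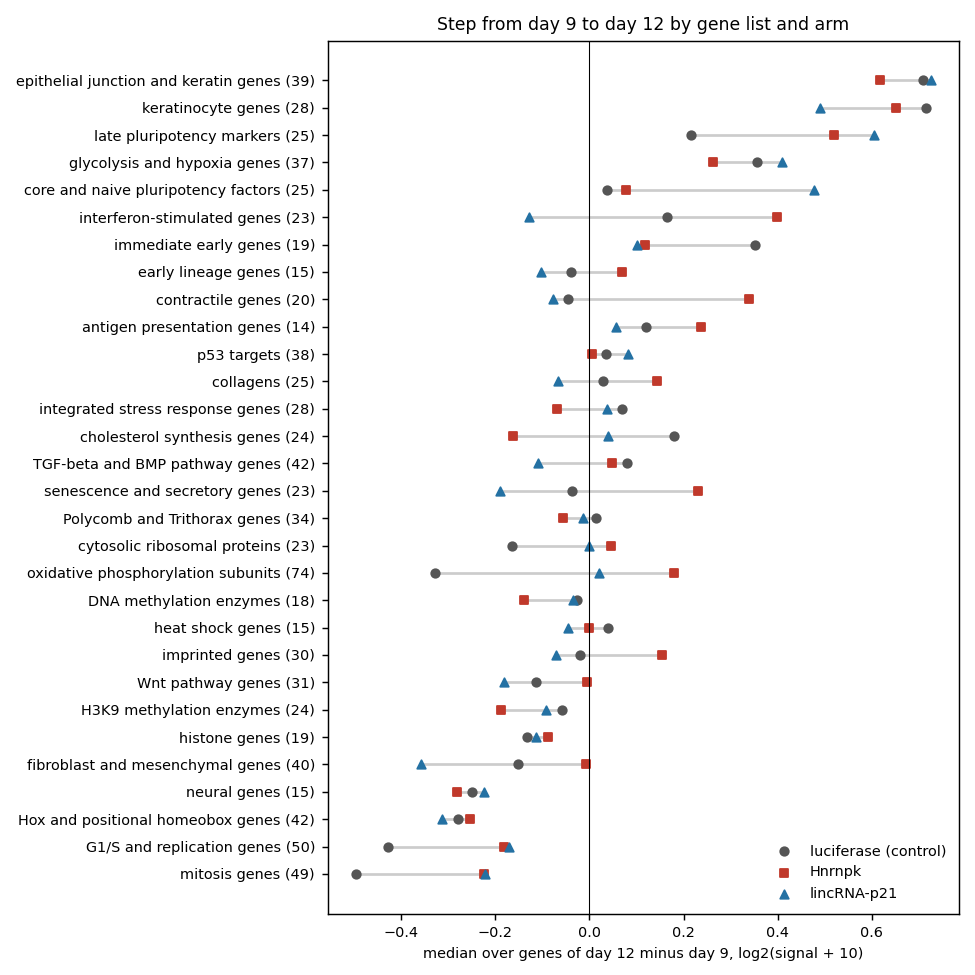
Median over genes of day 12 minus day 9 on the log2(signal + 10) scale for each gene list with 10 or more tested members (numbers in brackets), with 1 marker per hairpin arm and a grey bar over their range. Epithelial genes are at the top with medians of 0.71, 0.62 and 0.72, mitosis genes are at the bottom, and oxidative phosphorylation spans -0.33 to 0.18.

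Single arms moved genes that the others did not, which 1 library against 1 cannot test. A difference of 1 or more upward was seen for 168 genes in the luciferase arm (1.34%), 145 in the Hnrnpk arm (1.16%) and 145 with the lincRNA-p21 hairpin (1.16%), and downward for 40 (0.319%), 61 (0.486%) and 50 (0.399%). Of these, 39 upward and 5 downward were common to all 3 arms. With both other arms under 0.5 in that direction, 17, 17 and 6 genes were up and 12, 11 and 9 down in the luciferase, Hnrnpk and lincRNA-p21 arms.

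The genes described next were named because 1 arm's step exceeded, in either direction, those of both other arms by most. Krt18, Sprr2a1, Dppa5a and Dnmt3b, described above, were named by the same rule. Car4, a membrane-bound carbonic anhydrase, went from 65 to 886.5 in the Hnrnpk arm (3.58), from 17 to 132 with the lincRNA-p21 hairpin (2.39) and from 6.5 to 13 in the luciferase arm (0.48). Apoe, the lipid carrier apolipoprotein E, was at 384 and 360 in the luciferase arm, and went from 1642 to 3798.5 in the Hnrnpk arm and from 646 to 1715.5 in the lincRNA-p21 arm. In both genes the control arm had the smallest step, and neither was called over the arms together.

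In the Hnrnpk arm Inpp4b, a phosphoinositide phosphatase, went from 193 to 12 (-3.21), against -0.85 and -0.54 in the luciferase and lincRNA-p21 arms. Fabp3, a fatty acid carrier of muscle, went from 211 to 782 there (1.84), against -0.14 and 0.55. Itgb7, an integrin subunit, was level in that arm, at 106.5 and 87, and higher in the others, by 1.78 with luciferase and 1.18 with lincRNA-p21. Smtnl2 had the same pattern, at -0.09 against 1.32 and 1.10.

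Hsp90ab1, a heat shock chaperone, went from 48100.5 to 62322 in the luciferase arm, from 118715 to 50774 in the Hnrnpk arm and from 90518.5 to 56816.5 with lincRNA-p21, so that its step was above 0 in the control arm alone. Its Hnrnpk value on day 9 is the highest value of the table, which all columns share. In the luciferase arm Tgtp1, an interferon-induced GTPase, was at 59.5 and 73.5, while it went from 484 to 171 with Hnrnpk and from 297.5 to 103.5 with lincRNA-p21. Lgsn differed by -0.09 there and by -1.39 and -1.50 in the knockdown arms. In the lincRNA-p21 arm Oaf went from 725 to 377.5, against small steps of 0.09 and 0.19 in the luciferase and Hnrnpk arms. Cntnap5a was level in that arm, at 93 and 91, and differed by -1.56 and -1.04 in the luciferase and Hnrnpk arms.

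The step of the knockdown arms was set against that of the control arm in a limma model of the 3 within-arm differences, added after the values had been seen and resting on 1 residual degree of freedom. It called 0 of 12541 genes, with 1772 at an unadjusted p under 0.05 and a lowest adjusted p of 0.0806. The control side of that model is a single difference, assumed to vary like the others, and the knockdown side pools 2 different hairpins. The count was 135 after quantile normalization, 11 with 1 added before the log2, 10 with columns centred on their medians, 9 with 50 added and 6 among genes with a mean signal of 100 or more.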

How the data were processed

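RNA of 9 libraries was sequenced by the authors, and 1 table of normalized signal for 12550 genes was deposited. RSEM 1.2.12 and Bowtie 1.0.1 are named in the submitters' processing notes with build mm10, without their roles. The labels do not say how the deposited signal was scaled. Its values move in steps of 0.5, 62.8% are whole, column totals differ by 0.025% and all 9 columns share the highest value, 118715. Depth per library is therefore unknown. How many replicates were merged into a library is not given, so the spread is that of a day's difference between arms and not between cultures.

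The 12541 genes with a mean signal of 20 or more were tested (9 lay below), on log2 after adding 10 to each deposited value, in R 4.3.3 with limma 3.58.1, with terms for arm and day, 4 residual degrees of freedom, an intensity trend and Benjamini-Hochberg adjustment at 0.05. Matching by arm rests on the labels. Deviations of an arm on day 9 and day 12 correlated over genes at 0.695, 0.724 and 0.527 (luciferase, Hnrnpk, lincRNA-p21). Coordinates are from GENCODE M21 (12462 genes matched), promoters from RefSeq by Ensembl identifier and otherwise by symbol. Promoters were matched for 41 of the 66 genes that rose, too small a share to describe that set, and for 21 of 25 genes of the epidermal cluster. The test was checked only on data simulated from its own fit with independent noise. That does not show how well it holds for these libraries.

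The gene lists and the comparison were chosen with earlier results of these data known. Named genes are the 12 with the largest difference each way among called genes of 1 direction in all arms, up to 4 members per list with the largest difference, and 3 per arm and direction that exceed the other arms most; clone-named genes were not named. Others named are said to be chosen after their values were seen, or are called members and markers of a list. The results of 3 genes are not reported here.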

Additional observations from a re-analysis of the deposited data

Results flagged for a closer look

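Values that took opposite signs between arms in the step from day 9 to day 12 are given here; each rests on 1 library against 1, and differences between single arms were not tested. The model of knockdown against control steps, which pools both knockdown arms, called neither gene named here (limma adjusted p = 0.410 for Ptn and 0.306 for Vim). Ptn, the growth factor pleiotrophin, differed by -0.86 in the luciferase arm, by 0.57 in the Hnrnpk arm and by -0.75 in the lincRNA-p21 arm. Vim, the gene of vimentin, differed by 0.93, 0.54 and -0.54 in the same order, and its values sit on levels that many columns share (118715, 90534 and 62353), and the part of that scale in these steps was not tested. The median over senescence and secretory genes was -0.04, 0.23 and -0.19. Oxidative phosphorylation subunits had medians of -0.33, 0.18 and 0.02. Cholesterol synthesis genes had medians of 0.18, -0.16 and 0.04.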

How the results depend on the processing

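The 82 calls (66 higher, 16 lower) became 50 (38 higher) with 1 added before log2, 833 (541 higher, 292 lower) with days 9 and 12 alone, and 0 (0 higher, 0 lower) with no replicate block, that is without matching by arm. Without 1 arm or library they ranged from 0 to 421, the higher from 0 to 295 and the lower from 0 to 126. Genes whose step differed between knockdown and control arms were 0 as fitted and 11, 9, 6, 10 and 135 with 1 added, 50 added, a mean signal of 100 or more, median centring and quantile normalization. List medians that changed sign were early lineage (-0.03 with a mean signal of 100 or more), contractile (-0.07 without the Hnrnpk arm, -0.067 without Hnrnpk day 9) and interferon-stimulated genes (-0.022 without Hnrnpk day 12). Without lincRNA-p21 day 12 the contractile and interferon medians were 0.209 and 0.347. The cause was not tested; settings without an arm or library also have fewer samples. Depth is unknown, so low signal has no counting limit.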

Other observations

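Interferon-stimulated genes were not described above. Of 23 tested, 0 were called (limma, 7 at an unadjusted p under 0.05), and the median step was 0.16 in the luciferase arm, 0.40 in the Hnrnpk arm and -0.13 in the lincRNA-p21 arm. Oas2, an antiviral synthetase, went from 194 to 288.5, from 294 to 659 and from 281 to 384 in these arms, while Rsad2, also antiviral, was below 0 in all 3 (-0.52). Of 15 neural genes 0 were called, with a median of -0.16. At an unadjusted p under 0.05 (limma) 5 were lower and 0 higher, against 888 and 881 of all 12541 genes.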
